A study of Mus musculus with 15 samples.

Results

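The genes described here encode potassium channel subunits: every gene whose symbol begins with Kcn followed by a letter from a to v and that held at least 10 reads in at least 3 of 15 RNA-seq libraries. The name matched 93 of the 36814 genes in the table, and 63 of these met the read minimum, in 19 subfamilies by symbol. The libraries came from motor neurons of wild-type mice at postnatal day 6, with 3 libraries for each of 5 motor pools and no other genotype or treatment. A motor pool is the group of motor neurons that drives one muscle, and here a pool was marked by CTB-555, a fluorescent cholera toxin tracer taken up at the nerve ending, injected at postnatal day 4. TA is the pool of the tibialis anterior, EDL of the extensor digitorum longus, PL of the peroneus longus, GS of the gastrocnemius and IF of the muscles within the foot. Each library pooled 30 to 40 laser-captured cells of 2 to 5 animals, cut from 12 µm sections with at least 250000 µm2 captured. The injected muscles were inspected for tracer outside the target, and cords of such animals were not used, per the labels. No label ties a library to particular animals, so the p-values below are set against the spread between pooled libraries only. The capture takes whatever lies in the cut area, and in such bulk samples fewer cells of a type and less RNA per cell cannot be told apart.

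Potassium channels let potassium leave a cell and so pull the membrane back toward rest after an action potential. Voltage-gated alpha subunits (Kv) assemble as tetramers and end the spike, accessory subunits tune them, inward rectifiers and two-pore leak channels set the resting potential, and calcium-activated channels shape the afterhyperpolarization. In spinal motor neurons these currents fix how large a current a cell needs to fire and how fast it can fire, which differs between motor neurons of slow and fast muscle fibres.

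The depth, as reads counted on genes, ran from 4417114 in PL 2 to 8488340 in PL 1. Chat, the enzyme that makes acetylcholine, was present in all 15 libraries, at 66.2 to 495 CPM (a gene's share of its library's counts on a common scale, corrected between libraries by edgeR's TMM factors). The 6 motor neuron markers summed to 3463 to 3577 CPM in PL and 1663 to 2624 elsewhere. Of these Isl1, a homeodomain factor of motor neurons, had no read in TA and PL. The libraries PL 2 and PL 3 lacked more genes, with 17 and 20 of the 63 potassium channel genes at 0 reads against 0 to 9 in the 13 other libraries, and with 25.7% and 29.2% of all tested genes at 0 against 0.732% to 13.7%. The spread of the potassium channel genes followed that of all genes: the median SD of log2(CPM + 1) between libraries of a pool was 0.29 in IF and 1.29 in PL, against 0.29 and 1.30 for all tested genes. Calls in PL are therefore given below with their value without PL 2 and PL 3. The standard errors and p-values below use a spread per gene that is shared by all pools. They can therefore be too small in PL and too large in IF.

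Levels of different genes were compared by the authors' RPKM, which divides reads by gene length and library size. The highest mean RPKM over the 15 libraries belonged to Kcnk9, an acid-sensitive leak channel, at 81.5. High levels were also found for the spike-repolarizing alpha subunits Kcna1 at 57.4 and Kcna2 at 43.1, and for the leak channel Kcnk3 at 37.2. In all 15 genes had a mean RPKM of 10 or more and 11 lay below 1. The gene model of Kcnk9 is 1209 bases long and that of Kcnh7 15226 bases, so the order also depends on the length the authors assigned. Reads were found in all 15 libraries for 39 of the 63 genes. At the read minimum, Kcnh8 (142 reads in all), Kcnip2 (54 reads) and Kcnrg (99 reads) had 10 or more reads in exactly 3 libraries, while Kcng3 (72 reads) had them in 2 and was left out.

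**Figure D1:**
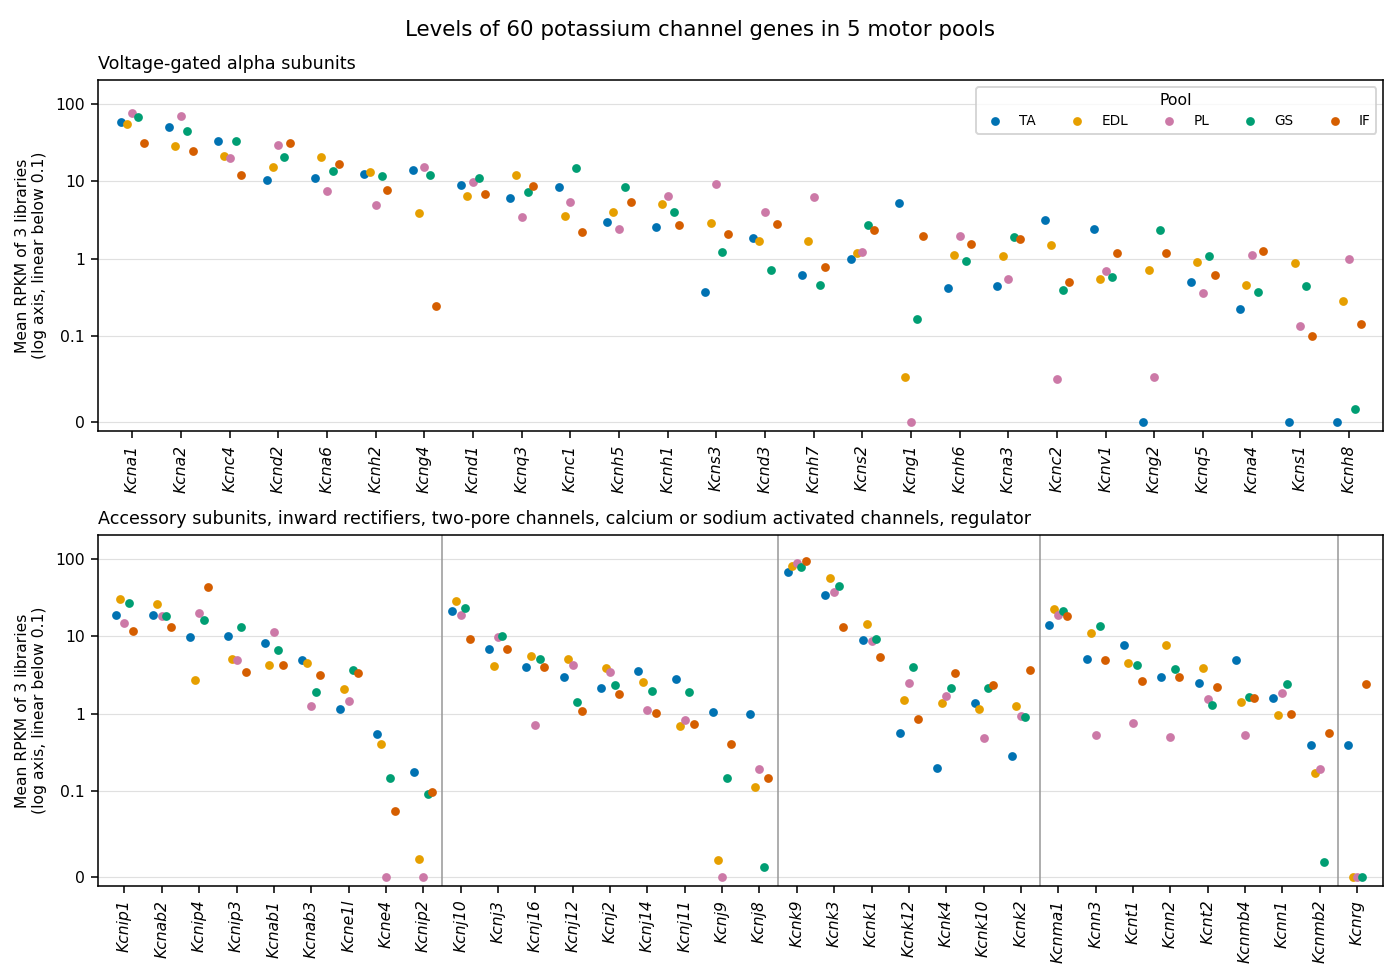
Mean authors' RPKM of 60 of the 63 potassium channel genes in the 5 pools (3 libraries each; log axis, linear below 0.1), with alpha subunits above and, divided by vertical lines, accessory subunits, inward rectifiers, two-pore channels, calcium or sodium activated channels and the regulator Kcnrg below. Kcnk9, Kcna1 and Kcna2 are the highest of those shown, and the IF points of Kcng4 and Kcna1 lie under those of the other pools.

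Summed over the 63 genes, RPKM was 656 ± 25.4 in GS (SD, n = 3), 635 ± 53.5 in PL, 617 ± 39.1 in EDL, 590.1 ± 39.1 in TA and 481 ± 34.1 in IF. The 3 IF libraries lay below the 12 others. The 29 alpha subunits had a summed RPKM of 213 ± 13.2 in IF against 281 ± 33.7 in EDL and 361 ± 89.96 in PL. The 9 inward rectifiers summed to 25.2 ± 2.704 in IF and 50.4 ± 21.4 in EDL. The 9 accessory subunits were at 81.8 ± 4.84 in IF and 71.99 ± 10.9 in TA, and the 7 two-pore channels summed to 124 ± 16.9 in IF and 113 ± 14.9 in TA. The 8 calcium or sodium activated genes had their lowest sum in PL, 24.9 ± 8.61, and their highest in EDL, 51.7 ± 8.79. As a ratio of the highest to the lowest pool mean, the gap was 2.08 for the calcium or sodium activated genes, 1.999 for inward rectifiers, 1.69 for alpha subunits, 1.39 for two-pore channels and 1.22 for accessory subunits. These sums are descriptions, with no test, and they depend on the scaling. With TMM-scaled CPM per kilobase in place of RPKM, IF had the lowest mean sum in all 5 classes: 339.5 against 479 in EDL, the next lowest, for alpha subunits, and 131 against 131 for accessory subunits. PL then had the highest sums of alpha, accessory and two-pore genes.

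**Figure D2:**
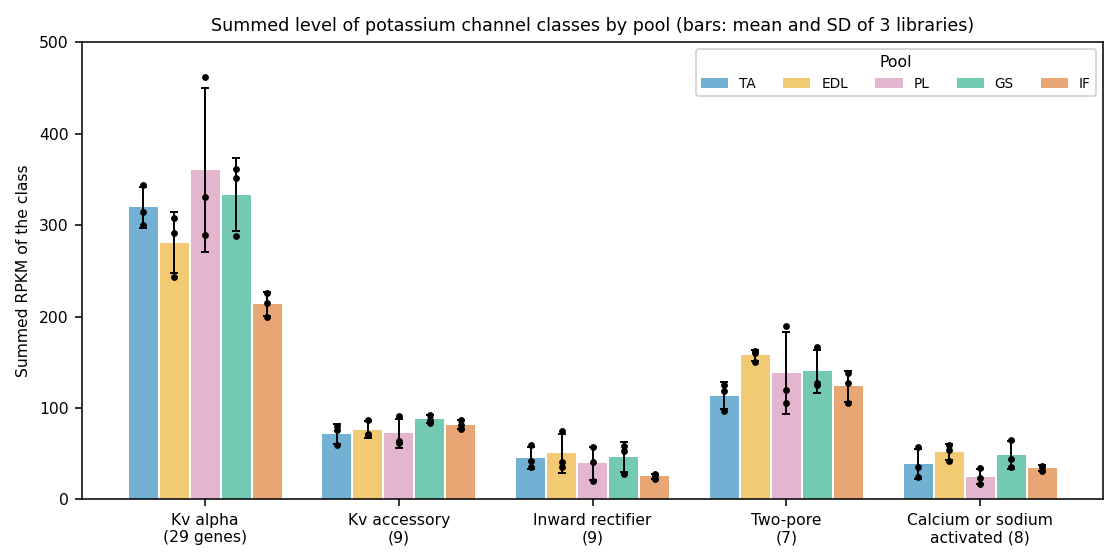
Summed authors' RPKM of the 5 large classes in each pool; bars are means of 3 libraries, error bars are SDs and dots are libraries. The alpha subunit sum of the 3 IF libraries lies below that of the 12 others, while the accessory sums overlap.

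More potassium channel genes were called in IF and PL than in the other pools, mostly downward in IF and upward in PL. In IF, 7 of 61 tested genes were lower and 1 higher than in the mean of the other 4 pools, among them Kcna1, Kcnc1, Kcng4 and Kcnk3, while 1.10% of all tested genes were called (0.397% lower and 0.704% higher). In PL, 8 were higher and 1 lower, among them Kcnh7 and Kcnd2, with 4.87% of all genes called (4.50% higher and 0.363% lower). In TA Kcng1 was called higher, the 1 member there, with 0.418% of all genes (0.286% higher). No member was called in EDL (0.0976% of all genes) or GS (0.126%). Calls rest on the quasi-likelihood F-test of edgeR over the 14340 genes that passed its expression filter, with a Benjamini-Hochberg adjusted p under 0.05 counted as called. Of the 63 members 61 passed that filter, and Kcnh8 and Kcnip2 did not. A fold change of a pool is the log2 of its fitted mean level minus the average of that log2 over the other 4 pools, given with its standard error. The mean over libraries is taken before the log, so a single high library can weigh heavily.

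The members called were 13.1% of 61 in IF, 14.8% in PL and 1.64% in TA. The median log2 fold change of the 61 was -0.43 in IF and 0.45 in PL, beside 0.02 and -0.06 over all tested genes. With PL at its 3-read floor for genes it lacked, the PL median of the members was 0.42. In IF 40 of 61 members lay below 0 (65.6% against 48.8% of all genes), and in PL 36 lay above 0 (59.0% against 48.0%). As many as in PL lay above 0 in GS (59.0% against 52.9%), and 43 did in TA (70.5% against 52.7%). With library totals in place of TMM scaling, the all-gene medians moved to 0.33 in IF and -0.37 in PL. Those of the members moved to -0.11 and 0.06, so that under both scalings the members' median lay below that of all genes in IF and above it in PL. The calls by that scaling were 2 higher and 5 lower in IF, with 1.23% of all genes called, and 1 higher and 1 lower in PL, with 1.03%. Of the 9 PL calls 7 were lost with it, and those of Kcnh7 and Kcng1 held. Of the 8 IF calls 6 held, and those of Kcnip1 and Kcnj10 were lost.

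The counts rest on few libraries. Without any 1 of IF 1, IF 2 and IF 3 the IF count was 0, with 0.207% to 0.247% of all genes called, while no fold change of the genes lower in IF named below moved by more than 0.570 on the log2 scale. Without PL 2 and PL 3 together, when PL 1 alone stood for its pool, the PL count was 0 (0.0610% of all genes) and the IF count was 8 (0.952%). Without PL 1 the PL count was 20 of 62 tested members, or 32.3%, while 21.4% of all genes were called. It was 4 without IF 2 or IF 3 (2.41% to 2.44% of all genes), and 5 without EDL 2, IF 1 or TA 2 (2.49% to 3.899%). The test of any difference among the 5 pools passed 5 of 61 members (among them Kcnh7, Kcng1, Kcna1 and Kcnc1), with 1.31% of all genes passing. That count was 2 without IF 2 or IF 3 and 3 without IF 1 (0.441% to 0.494% of all genes), 9 without PL 3 (1.88%) and 17 without PL 1 (8.08%). In the 10 pairs of pools, 7 members were called at least once (the same 5 and 2 more, Kcng4 and Kcnk3), with 1.38% of all genes. The count in pairs fell to 2 without IF 2 or IF 3 and to 3 without IF 1 (0.441% to 0.447% of all genes), and was 13 without PL 3 (2.22%) and 25 without PL 1 (19.9%). Of the pairs, PL against IF called 6 members (0.900% of all genes) and TA against IF 4 (0.628%), while GS against IF (0.126%), PL against GS (0.119%) and TA against PL (0.230%) called 1 each.

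**Figure D3:**
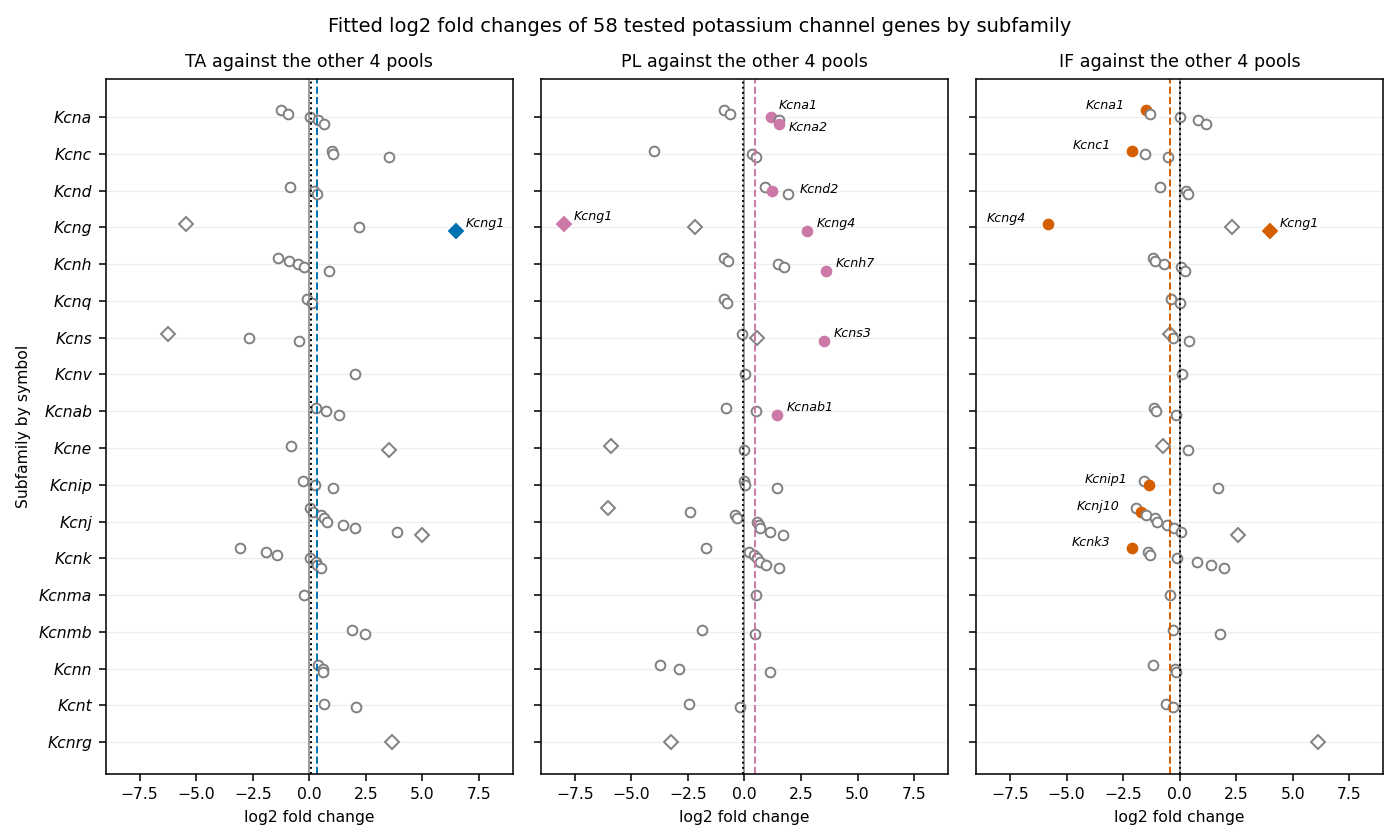
Fitted log2 fold changes of 58 of the 61 tested potassium channel genes in TA, PL and IF against the other 4 pools, by subfamily; filled points passed the edgeR test, diamonds are genes with 1 or more pools at 0 reads, whose fitted size depends on the fit's prior count. Dashed lines are the median of all 61 members and dotted lines that of all tested genes, -0.43 and 0.02 in IF and 0.45 and -0.06 in PL.

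The Kcna subfamily holds the low-threshold alpha subunits that gather beside the nodes of Ranvier and at the axon initial segment. Kcna1 alone made up 49.4% of the RPKM of its 5 members. Kcna1 was at 515, 433 and 368 CPM in IF 1 to IF 3, 1076, 1103 and 1545 in TA, 761, 858 and 852 in EDL, 1129.8, 1905 and 2644 in PL and 853, 1112 and 1526 in GS. By CPM the 3 IF libraries lay below all others, and PL 2 and PL 3 were the highest. The IF libraries were also the lowest by RPKM, and PL 3 was the highest. PL 1 and PL 2, at an RPKM of 64.6 and 71.3, lay within the range of the other pools, with GS 3 at 81.7. By edgeR the log2 fold change was -1.48 ± 0.27 in IF (Benjamini-Hochberg adjusted p = 0.00892) and 1.16 ± 0.22 in PL (adjusted p = 0.00776). Without 1 library at a time the IF value ranged from -1.58 to -1.33, with an adjusted p of up to 0.116 without IF 3. The PL value was 0.83 without PL 3 (adjusted p = 0.0611) and 0.41 without PL 2 and PL 3 (adjusted p = 0.993), and with library totals its adjusted p was 0.0811.

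Kcna2, which assembles with Kcna1 in axons, was called higher in PL at 1.54 ± 0.39 (edgeR, Benjamini-Hochberg adjusted p = 0.0291). Its PL libraries held 253, 1497 and 248 CPM against 125 to 596 in the 12 others. PL 1 and PL 3 lay within the range of the other pools, and PL 2 alone lay above it. Without PL 2 the log2 fold change was 0.12 (adjusted p = 0.898), and without PL 2 and PL 3 it was 0.14 (adjusted p = 1.00). The call was also lost without EDL 1, EDL 2, TA 2 or any IF library, and with library totals (adjusted p = 0.183). PL 2 also held the highest sum of the 10 oligodendrocyte markers, 2408 CPM against 161 to 1434 in the 14 others, with all 10 detected in PL. Their part in the result was not tested. Kcna6, another alpha subunit of this group, was not called, and its pool means ran from 109 ± 79.95 CPM in PL to 209 ± 3.36 in EDL (adjusted p for any difference 0.938). An unnamed gene model on the other strand within Kcna6 held 12859 reads against its 16916, and with unstranded reads those of both cannot be told apart.

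Kcnc subunits open at high voltage and close fast, and are known for letting neurons fire at high rates. Kcnc1 was at 38.2, 32.1 and 25.2 CPM in IF, 40.2, 40.5 and 84.04 in EDL, 85.8, 131 and 191 in PL, 247, 202 and 101 in TA and 155, 202 and 420.0 in GS. The IF libraries were below all others, EDL was the next lowest pool, and GS 3 was the highest library. By RPKM, IF 1 at 2.71 lay above EDL 1 and EDL 2, at 2.37 and 2.66. Kcnc1 changed by -2.11 ± 0.45 in IF (edgeR, Benjamini-Hochberg adjusted p = 0.0249), and GS exceeded IF by 3.02 ± 0.52 (adjusted p = 0.0219). Without IF 3 the IF value was -1.93 (adjusted p = 0.238).

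Kcnc4 was at 56.8 ± 8.49 CPM in IF and 236 ± 103 in TA, and its IF fold change of -1.54 ± 0.52 missed the threshold (edgeR, Benjamini-Hochberg adjusted p = 0.222). Kcnc2 was at 27.8, 18.96 and 93.7 CPM in TA and had 1 library with reads in PL, at 1.84. Its TA fold change was 3.54 ± 0.88 (adjusted p = 0.102), while DESeq2 called it at 3.53 (adjusted p = 0.0107).

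The silent subunits Kcng, Kcns and Kcnv form no channel alone and change the gating of the delayed rectifiers with which they assemble. Kcng4 was at 2.24, 0.125 and 2.03 CPM in IF, that is 22, 1 and 14 reads. It was at 47.3, 22.3 and 8.91 CPM in EDL, 49.1, 80.7 and 136 in GS, 7.12, 80.00 and 294 in TA and 20.7, 151 and 356 in PL. All 3 IF libraries lay below all 12 others, and the 3 libraries of TA and of PL differed widely among themselves. The log2 fold change in IF was -5.83 ± 1.23 (edgeR, Benjamini-Hochberg adjusted p = 0.0240), the largest in size among members called lower there, and it ranged from -6.27 to -5.26 without 1 library at a time. Without IF 1, IF 2 or IF 3 its adjusted p was 0.112, 0.157 and 0.143. In PL Kcng4 was called higher at 2.77 ± 0.71 (adjusted p = 0.0303), which became 1.73 without PL 3 (adjusted p = 0.289) and -0.32 without PL 2 and PL 3 (adjusted p = 1.00). The PL call was lost without any 1 of 9 libraries (EDL 2, EDL 3, GS 1, GS 2, IF 2, IF 3, PL 2, PL 3 and TA 2), and with library totals (adjusted p = 0.148), and the mean it is set against includes the low IF level.

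Kcnc1 and Kcng4 fell together in IF, and Kcnh7, described below, was the one member with all PL libraries above the others by CPM. Their promoters, the 250 bases before the RefSeq start on GRCm38.p6, read 5′ to 3′ on the gene's strand, are shown to compare the sequence at which their transcription starts. Capitals mark matches, on either strand, of GGGCGG (the GC box), TATAAA (the TATA box), TAATTA (a homeodomain core) or TGACG (the core of the cyclic AMP response element).
Kcnc1 (chr7:46396218-46396467, plus strand): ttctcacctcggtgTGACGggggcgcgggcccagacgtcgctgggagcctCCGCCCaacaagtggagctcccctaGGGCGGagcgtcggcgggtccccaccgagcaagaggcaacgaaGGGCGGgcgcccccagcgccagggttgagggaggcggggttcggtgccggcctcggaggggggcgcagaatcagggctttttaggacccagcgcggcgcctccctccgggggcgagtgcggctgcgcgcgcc
Kcng4 (chr8:119635681-119635930, minus strand): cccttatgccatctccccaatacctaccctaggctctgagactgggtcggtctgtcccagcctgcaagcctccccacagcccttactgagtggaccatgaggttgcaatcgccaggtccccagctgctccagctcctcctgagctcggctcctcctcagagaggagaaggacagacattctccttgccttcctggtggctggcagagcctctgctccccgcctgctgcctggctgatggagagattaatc
Kcnh7 (chr2:63184288-63184537, minus strand): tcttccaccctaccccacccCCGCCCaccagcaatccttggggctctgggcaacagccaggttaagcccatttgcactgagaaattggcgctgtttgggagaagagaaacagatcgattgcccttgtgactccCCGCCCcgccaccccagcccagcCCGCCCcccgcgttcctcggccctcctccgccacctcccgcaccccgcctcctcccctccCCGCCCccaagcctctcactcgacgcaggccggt
The window of Kcnc1 held 3 GC boxes and 1 TGACG, that of Kcnh7 4 GC boxes, and that of Kcng4 none of the 4 motifs. G and C made up 74.4% of the bases of Kcnc1, 67.6% of Kcnh7 and 60.4% of Kcng4. Of the 63 members 46 had RefSeq windows, 68 in all, of which 45.6% held a GC box against 32.7% of all 32851 windows. TATAAA was in 2.94% of member windows and 12.4% of all, TGACG in 14.7% and 17.8%, and TAATTA in 0 and 4.84%. Kcnc1 and Kcng4 shared none of the 4 motifs in this window.

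Kcng1, another silent subunit, was uneven between pools. It was at 35.1, 5.96 and 127 CPM in TA and 8.25, 21.7 and 12.4 in IF, at 1.61, 1.36 and 1.14 in GS and 0.463, 0 and 0.753 in EDL, and had no read in the 3 PL libraries. TA and IF overlapped each other and lay above the 9 libraries of GS, EDL and PL. The 3 TA libraries spanned from 33 to 724 reads. Set against a floor of 3 reads over the PL libraries, Kcng1 was at least 316-fold higher in TA than in PL and at least 79.7-fold higher in IF, bounds that cover counting error only. Without TA 3 the bound in TA was 116. Without PL 1 the bounds were 143 in TA and 36.1 in IF, and without PL 2 and PL 3 they were 173 and 43.5. The edgeR test called it higher in TA (Benjamini-Hochberg adjusted p = 0.00234), the only member called there, and lower in PL (adjusted p = 0.0201, or 0.431 without PL 2 and PL 3). It was also called higher in IF (adjusted p = 0.0321), although its mean of 14.1 CPM was close to the arithmetic mean of the other 4 pools, 14.5. The test averages the logs of the pool means, and the empty PL pool pulls that average down. The TA call held without each library in turn (adjusted p of at most 0.0455). The IF call was lost without any 1 of 8 libraries (EDL 1, TA 1 and each GS or IF library), with an adjusted p of up to 0.243 without IF 2. The TA count of 1 became 4 without PL 1 (1.64% of all genes) and 2 without PL 3 (0.763%).

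Kcns3 was called higher in PL at 3.51 ± 0.86 (edgeR, Benjamini-Hochberg adjusted p = 0.0250). The PL libraries held 29.8, 4.47 and 216 CPM, against 0 to 17.4 elsewhere. PL 2 lay within the range of the other pools and PL 3 held most of the reads; without PL 3 the value was 1.23 (adjusted p = 0.596), and without PL 2 and PL 3 2.02 (adjusted p = 0.986). The call was also lost without EDL 3 or any IF library, and with library totals (adjusted p = 0.123). Kcns1 had no read in TA and at most 6.72 CPM elsewhere, Kcng2 had no read in TA and 2 reads in PL, and Kcnv1 ranged from 4.13 ± 3.94 CPM in EDL to 25.7 ± 15.9 in TA. No call was made for these 3.

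**Figure D4:**
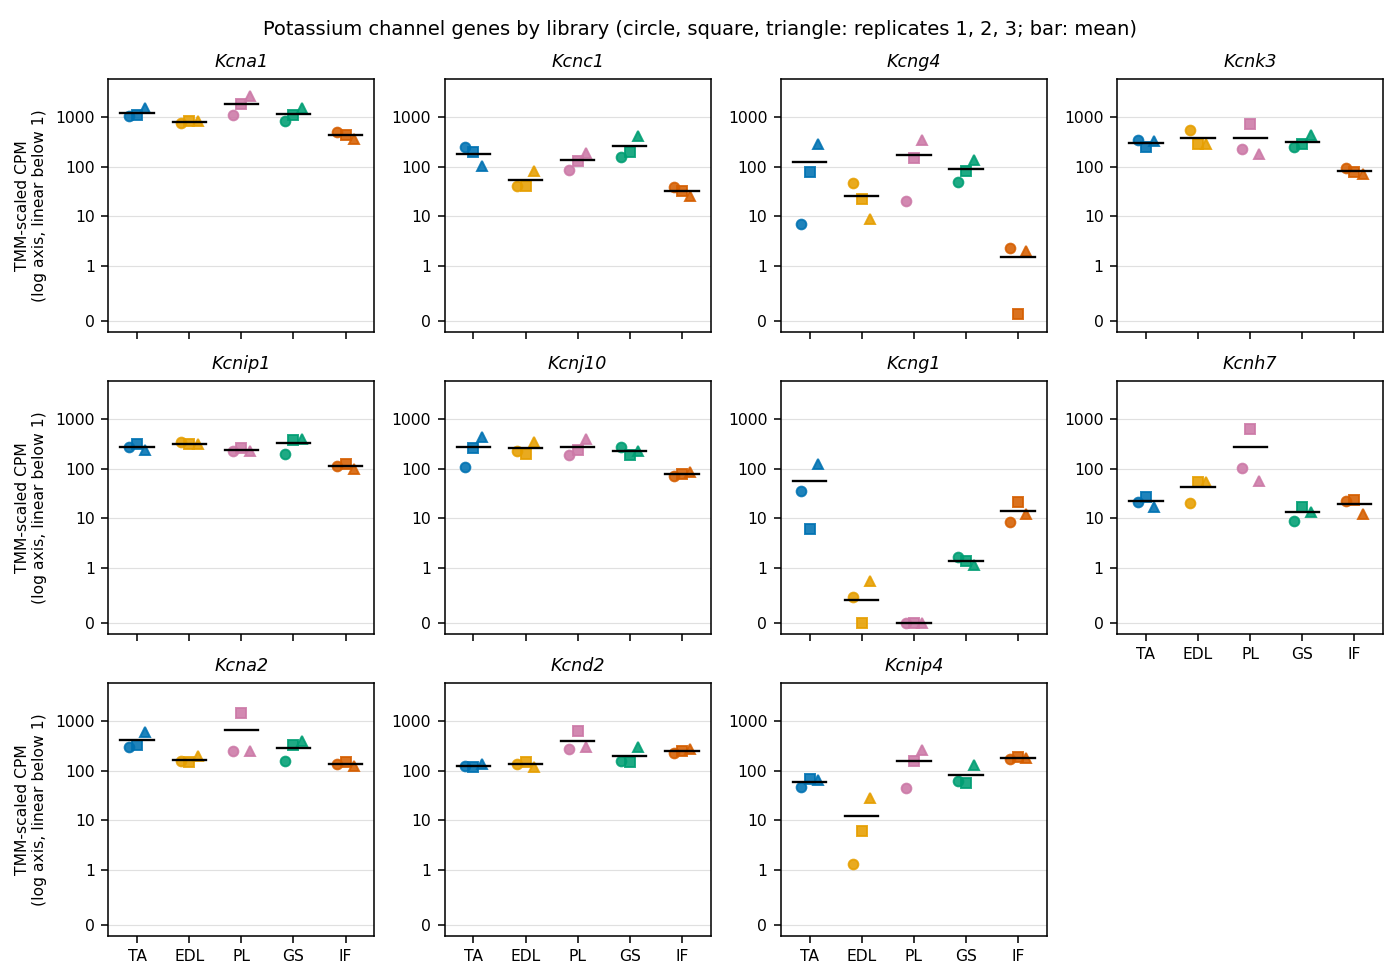
TMM-scaled CPM of 11 potassium channel genes in each library (log axis, linear below 1); circles, squares and triangles are replicates 1, 2 and 3, and bars are means of 3 libraries. In the first 6 panels the 3 IF points lie below the points of all other pools, and in the Kcng1 panel the 3 PL points are at 0.

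Kcnd subunits carry the fast A-type current and bind Kcnip proteins, calcium sensors that speed their recovery. Kcnd2 was called higher in PL at 1.22 ± 0.27 (edgeR, Benjamini-Hochberg adjusted p = 0.0147), from 276, 627 and 304 CPM. PL 1 lay just below the highest GS and IF libraries and PL 3 just above them. Without PL 2 the value was 0.75 (adjusted p = 0.146), and without PL 2 and PL 3 it was 0.68 (adjusted p = 0.932). With library totals the call was lost (adjusted p = 0.163). By RPKM the highest pool was IF, at 30.6 ± 3.11 against 28.98 ± 11.2 in PL, where PL 1 and PL 3 lay below all IF libraries. In IF it was at 225, 253 and 276 CPM, above all TA and EDL libraries, whose range was 119.7 to 150.1. Kcnip1 was at 115, 125 and 101 CPM in IF and 196 to 395 in the 12 others, with no overlap, while by RPKM PL 3 at 11.4 lay below IF 1 and IF 2 at 12.1 and 12.1. It was called lower in IF at -1.35 ± 0.27 (adjusted p = 0.0188), a value between -1.39 and -1.23 without 1 library at a time, with an adjusted p of 0.223 without IF 3 and of 0.0613 with library totals. Kcnmb1 lies within Kcnip1 on the other strand and held 77 reads, all in EDL, against 25881 of Kcnip1.

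Kcnip4, a further calcium sensor of the A-type channel, was not lower in IF. It was at 1.27, 5.997 and 28.5 CPM in EDL, 45.96, 69.7 and 66.1 in TA, 63.4, 57.2 and 129 in GS, 45.8, 157 and 267 in PL and 169.8, 193 and 180.3 in IF. The EDL libraries lay below all 12 others, and the IF libraries lay above all but PL 3. By RPKM Kcnip4 was higher in IF, at 41.5, 43.6 and 43.2, than in all other libraries, with PL 3 at 31.7. By edgeR no comparison called it: the EDL value was -3.20 ± 0.75 (Benjamini-Hochberg adjusted p = 0.144) and EDL against IF gave -3.93 ± 0.85 (adjusted p = 0.0796). DESeq2 called it in EDL at -3.20 (adjusted p = 0.000250), the single member called there by DESeq2, with 0.495% of all genes. By edgeR, Kcnip4 was called in EDL without EDL 3, at -4.90 (adjusted p = 0.0277). In the authors' deposited table of genes higher in IF than in EDL, Kcnip4 had a fold of 15.2 and an adjusted p of 2.93e-13. Against 1.64% of members, 0.237% of all tested genes had 3 EDL libraries below the other 12.

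EDL and GS gave no call by edgeR over the 61 members. Unadjusted p was under 0.05 for 7 of them in EDL (3 higher and 4 lower) and for 5 in GS (4 higher and 1 lower). DESeq2 called 1 in each, where it called 0.495% of all genes in EDL and 0.417% in GS. The 1 in GS was Kcnc1, at 1.66 (adjusted p = 0.0186), which edgeR called in GS without PL 3, at 1.76 (Benjamini-Hochberg adjusted p = 0.0409). Without PL 1 the call in GS was Kcnn3 instead, at 3.86 (adjusted p = 0.0257). Of all tested genes 6.42% in EDL and 5.82% in GS had an unadjusted p under 0.05. The median log2 fold change of the members was -0.18 in EDL, 0.14 in GS and 0.35 in TA, beside 0.06, 0.04 and 0.06 over all genes. With pools at 0 set to the 3-read floor the GS median was 0.07. With library totals the 3 medians were -0.0012, 0.19 and 0.21, beside 0.19, 0.12 and -0.12.

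Kcnh subunits form the ether-a-go-go channels, which damp repetitive firing. Kcnh7 was at 102, 652 and 56.04 CPM in PL, 20.2, 55.2 and 54.8 in EDL, 21.7, 27.3 and 17.2 in TA, 22.5, 22.9 and 12.2 in IF and 8.77, 17.2 and 13.5 in GS. The 3 PL libraries lay above all 12 others, PL 3 only just above EDL 2 and EDL 3, and PL 2 stood far above. Kcnh7 was the 1 of 61 members with this order in PL, and 0.621% of all genes had it. By RPKM the order was lost, with PL 3 at 1.16 and EDL 2 and EDL 3 at 2.17 and 2.22. The log2 fold change in PL was 3.60 ± 0.48 (edgeR, Benjamini-Hochberg adjusted p = 0.000653). Without PL 2 it was 1.83 (adjusted p = 0.0460), and without PL 2 and PL 3 it was 2.20 (adjusted p = 0.273). In the test of any difference its adjusted p was 0.00625, and 0.130 without PL 2. Gca overlaps Kcnh7 on the other strand and held 349 reads over the PL libraries, where Kcnh7 had 3240.

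Of the other Kcnh genes, Kcnh2, the member with the highest RPKM of the subfamily, was at 108, 23.96 and 25.4 CPM in PL and 53.5 to 179 in the other libraries, with PL 2 and PL 3 below all others and PL 1 within their range. Kcnh1 was at 132 ± 49.1 CPM in PL and 31.98 ± 6.11 in IF. Neither passed in any pool by edgeR (adjusted p for any difference 0.403 and 0.261). The Kcnq genes carry the M-current, a slow current that acetylcholine closes. Kcnq3 was at 22.8 ± 9.66 CPM in PL to 52.9 ± 28.7 in EDL, and Kcnq5 at 5.62 ± 8.66 in PL to 15.7 ± 4.25 in GS. Neither was called.

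The Kcnab proteins are cytoplasmic beta subunits that bind Kcna channels. Kcnab1 was called higher in PL at 1.45 ± 0.41 (edgeR, Benjamini-Hochberg adjusted p = 0.0472), from 263, 347 and 121 CPM in PL and 37.8 to 328 elsewhere, where TA 3 was the highest. PL 3 lay within the range of the other pools, as did PL 1. The call held without PL 3 or TA 3 and was lost without any 1 of the 13 other libraries, with an adjusted p of up to 0.216 without PL 2. Without PL 2 and PL 3 the value was 1.55 (adjusted p = 0.546), and with library totals the call was lost (adjusted p = 0.234). Kcnab2, at 124, 114 and 111 CPM in IF and 147 to 466 in the others, had its IF libraries below all 12 others but missed the threshold at -1.04 ± 0.37 (adjusted p = 0.263). The Kcne genes encode small single-pass subunits. Kcne1l, at 2.35 mean RPKM, led these, and Kcne4 had no read in PL.

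In all, 8 of 61 members had their 3 IF libraries below the other 12 by TMM-scaled CPM, among them Kcna1, Kcnab2, Kcnc1, Kcng4, Kcnip1, Kcnj10 and Kcnk3. That is 13.1% of members, and 1.22% of all tested genes had that order. Kcnk2 alone had its 3 IF libraries above the others, where all genes gave 1.88%. By RPKM, 3 members had their IF libraries below the rest (4.92% against 0.356% of all genes), among them Kcna1 and Kcng4, and 5 of the 8 overlapped other pools: Kcnab2, Kcnc1, Kcnip1, Kcnj10 and Kcnk3. Of the members with 1 pool apart from the rest elsewhere, Kcnip4 in EDL, Kcnj16, Kcnn2 and Kcnn3 in PL and Kcnk2 in IF were so by RPKM as well, and Kcnh7 in PL and Kcnt1 in TA were not. By RPKM alone, Kcnip4 lay above the rest in IF, Kcnd2 below it in TA and Kcnt1 below it in PL. Of all genes, 4.30%, 0.941% and 1.65% had those orders by RPKM.

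Inward rectifiers (Kcnj) pass potassium best near rest. Kcnj10, the channel through which glia take up potassium, led the 9 members with 48.8% of their RPKM. It was at 70.5, 78.8 and 85.8 CPM in IF and 107 to 439 in the 12 others, with no overlap and with TA 1 nearest. By RPKM, TA 1 at 7.91 lay below all 3 IF libraries, at 8.46, 8.73 and 10.1. The log2 fold change in IF was -1.73 ± 0.39 (edgeR, Benjamini-Hochberg adjusted p = 0.0367). The call was lost with library totals (adjusted p = 0.0970) and without TA 2 or any EDL, GS or IF library, with an adjusted p of up to 0.259, while the fold change lay between -1.82 and -1.59. Summed glial markers were also low in IF. The 8 astrocyte markers, all detected in each pool, summed to 1741 to 2017 CPM in IF and 2003 to 3929.6 elsewhere. Of the 8, 2 had their lowest pool mean in IF, among them Slc1a2 at 681 CPM, while Gja1 had its highest there, at 50.6, and 4 had their lowest in GS. The 10 oligodendrocyte markers summed to 161 to 202 CPM in IF, where Opalin was at 0 as in TA, EDL and GS, and to 257 to 2408 elsewhere, where EDL also had Mog at 0, and 6 of the 10 had their lowest mean in IF. Their part in the result was not tested.

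The 9 Kcnj members had a median log2 fold change of -1.01 in IF, beside 0.02 over all genes, and 1 of the 9 was called. Of the 9, 7 lay below 0, where 48.8% of all genes and 65.6% of all members did. With library totals in place of TMM scaling the Kcnj median was -0.75, beside 0.33 over all genes. In TA all 9 lay above 0, where 52.7% of all genes and 70.5% of all members did. Their TA median was 0.78, beside 0.06 over all genes, and none was called. Kcnj3, a subunit of the G protein-gated channel, ranged from 36.6 ± 14.1 CPM in EDL to 145 ± 181 in PL, and Kcnj16, a partner of Kcnj10, was at 10.8, 7.03 and 1.54 in PL and 17.7 to 69.03 elsewhere. Kcnj16 lay lower in the 3 PL libraries than in all others, as did Kcnn2 and Kcnn3, and these were the 3 such members of 61 (4.92% against 1.21% of all genes). None of the 3 was called by edgeR. Kcnj9 had no read in PL and 3.22, 1.26 and 20.05 CPM in TA, of which TA 3 held most. Kcnj8 and Kcnj11, pores of the ATP-sensitive channel, stayed at or below 8.14 and 42.4 CPM, and Kcnj14 was at 4.21 ± 4.83 in IF and 22.2 ± 15.2 in TA.

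Two-pore channels (Kcnk) carry the leak current. Kcnk9 and Kcnk3 form the acid-sensitive leak that transmitters close in motor neurons, and of the 2 only Kcnk3 was called lower in IF. Kcnk3 was at 94.7, 77.6 and 70.2 CPM in IF, 342, 251 and 336 in TA, 556, 288 and 292 in EDL, 226, 749.7 and 178 in PL and 254, 283 and 433 in GS. The 3 IF libraries lay below all others by CPM, while by RPKM PL 3 at 14.7 lay below IF 1 at 16.1. It was called lower in IF at -2.10 ± 0.42 (edgeR, Benjamini-Hochberg adjusted p = 0.0169), with an adjusted p of 0.157 without IF 3 at -1.97. Kcnk9 was at 195, 163 and 188 CPM in IF and 67.1 to 389.6 elsewhere, where PL 2 was the lowest and PL 3 the highest library, and changed by -0.11 ± 0.36 in IF (adjusted p = 0.998). The difference between the fold changes of the 2 genes was not tested.

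By RPKM, which allows the levels of both to be set side by side, Kcnk9 was at 94.8 ± 12.5 and Kcnk3 at 13.3 ± 2.42 in IF, while in EDL they were at 80.8 ± 7.78 and 57.04 ± 18.6. Kcnk2, a leak channel gated by stretch, was at 20.3, 18.6 and 24.4 CPM in IF and 0.181 to 16.9 elsewhere. Its IF libraries were the highest, EDL 2 was next, and the fold change of 1.94 ± 0.89 missed the threshold (adjusted p = 0.501). Kcnk1 was at 19.5 ± 4.69 CPM in IF and 55.8 ± 40.02 in EDL, and was not called. The 7 two-pore members had a median log2 fold change of -0.11 in IF, beside 0.02 over all genes. With library totals in place of TMM scaling both moved up, to 0.19 and 0.33. The class thus lay 0.13 below the all-gene median under either scaling.

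No calcium or sodium activated member passed the edgeR test in any pool, although 2 of the 8, Kcnn2 and Kcnn3, had all PL libraries below the others. Kcnma1, the large-conductance channel opened by voltage and calcium, ran from 139 ± 17.7 CPM in IF to 236 ± 31.7 in PL. Kcnn genes encode the small-conductance channels, which are opened by calcium and carry the medium afterhyperpolarization. Kcnn3 was at 9.64, 0 and 0 CPM in PL and 22.5 to 178 elsewhere, and Kcnn2 at 10.6, 0.319 and 0.441 and 11.7 to 89.7. All 3 PL libraries of both lay below the 12 others, with PL 1 nearest. Their PL fold changes were -3.74 ± 1.14 (edgeR, Benjamini-Hochberg adjusted p = 0.0628) and -2.88 ± 1.02 (adjusted p = 0.108). Kcnn1 was at 3.25, 0 and 65.5 CPM in PL and overlapped all other pools.

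Kcnt1, a sodium-activated channel, was at 227, 128 and 69.3 CPM in TA and 1.28 to 68.2 elsewhere, and was the 1 member of 61 with its TA libraries above all others (0.635% of all genes). By RPKM, TA 3 at 3.85 lay below EDL 2, EDL 3 and the 3 GS libraries. Its TA fold change was 2.07 ± 0.59 (edgeR, Benjamini-Hochberg adjusted p = 0.163), and it was called in TA without PL 2 and PL 3, at 1.68 (adjusted p = 0.0185). In PL, PL 2 and PL 3 held 1.28 and 1.54 CPM and PL 1 31.4. Kcnt2 ranged from 15.3 ± 9.22 CPM in GS to 41.3 ± 6.93 in EDL. Kcnmb4, the neuronal beta subunit of Kcnma1, was at 94.3, 24.7 and 1.23 CPM in TA, of which TA 1 held most, and at 0 to 18.1 elsewhere. Kcnrg, a cytoplasmic regulator of Kv assembly, had reads only in the 3 IF libraries (5.91, 1.00 and 2.75 CPM) and in TA 3 (2.46 CPM), 99 reads in all, and was not called (adjusted p for any difference 0.169).

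The following members were called in no comparison. Among alpha subunits, Kcna3 and Kcna4 of the axonal group had a mean RPKM of 1.16 and 0.688, Kcnd1 and Kcnd3 of the A-type group 8.54 and 2.197, Kcnh5 and Kcnh6 4.61 and 1.19, and the silent subunit Kcns2 1.69. Among accessory subunits, Kcnab3 was at 3.17 and Kcnip3 at 7.34. The inward rectifiers Kcnj2 and Kcnj12 were at 2.73 and 2.97, the two-pore genes Kcnk4, Kcnk10 and Kcnk12 at 1.76, 1.51 and 1.87, and Kcnmb2, a beta subunit of Kcnma1, at 0.269. Kcnip3, a calcium sensor as Kcnip1 is, had pool means of 19.6 ± 7.63 CPM in IF and 83.98 ± 55.7 in TA, and Kcnk12 of 2.58 ± 2.21 in TA and 14.4 ± 13.3 in GS.

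Of the 63 members, 4 pairs lay within 100 kb of each other on mm9, all within a subfamily. Kcna1 and Kcna6 lie 62.5 kb apart on chromosome 6 on the same strand, and Kcna3 and Kcna2 63.4 kb apart on chromosome 3. Kcnj16 and Kcnj2 are 38.2 kb apart on chromosome 11, and Kcnj9 and Kcnj10 11.9 kb apart on chromosome 1 on opposite strands. Mean RPKM was 0.323 for Kcnj9 and 20.2 for Kcnj10, 1.16 for Kcna3 and 43.1 for Kcna2, and 57.4 for Kcna1 and 13.8 for Kcna6, while Kcnj16 and Kcnj2 were closer, at 3.88 and 2.73. In IF, Kcna1 was called and Kcna6 was not. Other genes called in the text lie apart from these pairs: Kcnc1 (ENSMUSG00000058975) on chromosome 7 from 53651867 to 53693746, Kcng4 (ENSMUSG00000045246) on chromosome 8 from 122147754 to 122159581, Kcng1 (ENSMUSG00000074575) on chromosome 2 from 168085617 to 168107237 and Kcnh7 (ENSMUSG00000059742) on chromosome 2 from 62531471 to 63022345, all mm9.

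The 30 rows that matched by name but missed the read minimum held few reads. These were 29 symbols outside the members and a second gene model under the symbol Kcnh8. Of the 29, 9 had no read in any library, among them Kcnj4, Kcnj5 and Kcnj1. Kcna10 had 168 reads, 166 of them in 1 library, and Kcnj6, the G protein-gated partner of Kcnj9, had 17.

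Of 28 listed genes that anchor or modulate potassium channels, 26 were tested. In PL 3 of the 26 were higher and 0 lower by edgeR, where 4.50% of all genes were called higher: Dpp10, an A-type channel auxiliary subunit, and the axonal anchors Cntnap2 and Ank2. Cntnap2 was at 178, 543 and 322 CPM in PL and 109.5 to 271 elsewhere, and Ank2 at 2270.4, 5475 and 4838 and 1509.9 to 3266, with PL 1 of both within the range of the other pools. Without PL 2 and PL 3 none of the 3 was called, at 1.58 for Dpp10 (edgeR adjusted p = 0.308), 0.18 for Cntnap2 and -0.05 for Ank2 (both 1.00). With library totals Cntnap2 and Ank2 were also not called (adjusted p = 0.218 and 0.230). Dpp10 was at 226 ± 147 CPM in PL, 139.9 ± 32.7 in IF, 113 ± 8.76 in GS, 29.4 ± 14.3 in TA and 21.98 ± 7.595 in EDL. TA and EDL were the low pools, and Dpp10 alone passed the test of any difference (Benjamini-Hochberg adjusted p = 0.00538). In IF 1 was higher (0.704% of all genes) and 0 lower, Lgi1, a secreted protein that binds Kv complexes, at 86.7 ± 4.19 CPM against 17.4 ± 4.34 in TA, the next highest pool. Its log2 fold change was 3.23 ± 0.70 (edgeR adjusted p = 0.0279). The Lgi1 call held with library totals (adjusted p = 0.0195). It was lost without IF 1, IF 2 or IF 3 (adjusted p of 0.145 to 0.165). It was also lost without EDL 2, EDL 3, GS 3, TA 1 or TA 3 (adjusted p of up to 0.0594). None of the 26 was called in TA, EDL or GS.

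Several marker lists differed in their sum between pools. The 6 motor neuron markers had their highest sums in PL, as given above, with 3 of the 6 highest in PL and 3 lowest in IF. Chat was at 405 ± 142 CPM in PL and 83.3 ± 2.59 in IF, and Slc5a7 at 1586 ± 506 and 718 ± 14.9. The other way, 2 of the 6 were highest in IF, among them Prph, which held 63.1% of the IF sum. The 4 alpha motor neuron markers, all detected in each pool, summed to 253 to 308 CPM in IF and 572 to 1926 in the 12 others. All 4 had their lowest mean in IF, but Mmp9 and Spp1 only just, at 29.6 and 10.8 CPM against 30.1 and 11.6 in PL. Calca was at 96.1 CPM in IF and 555 to 1198.5 elsewhere, where it held 57.9% to 72.3% of the sum. Rbfox3 was at 139 CPM in IF and 229 to 406 elsewhere. The 4 gamma motor neuron markers, also all detected, summed to 749 to 780.1 in IF, within the 385 to 1227 elsewhere. The 6 markers of other neurons summed to 34.7 to 69.4 CPM in IF and 120.1 to 374 elsewhere, with 3 of the 6 lowest in IF and Pax2 at 0 in TA, PL and GS. The 6 endothelial and pericyte markers, all detected in each pool, summed to 606 to 1600.0 CPM in PL and 62.3 to 522 elsewhere. Rgs5, a pericyte gene, held 97.4% of the PL sum, 2 of the 6 were highest in PL, and Pecam1 was lowest there. The 6 microglial markers summed to 11.8 to 85.2 CPM in PL and 1.74 to 42.8 elsewhere, with Aif1 at 0 in all pools but IF and C1qa at 0 in EDL and PL. C1qb held 86.5% of that PL sum and alone was highest in PL, while 4 of the 6 were highest in IF. The 5 fibroblast markers summed to 83.4 to 208 CPM in EDL and 0.319 to 48.8 elsewhere, with Dcn at 89.5% of the EDL sum and Col3a1 at 0 in PL and IF. Their part in the changes of Kcna1, Kcnc1, Kcng4, Kcnip1 and Kcnk3 in IF and of the PL genes was not tested.

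The authors' deposited table of pairwise lists, made with DESeq on the same libraries and so no independent evidence, held 14 rows of potassium channel genes among 541 in 16 lists. In the authors' deposited table Kcng4 was lower in IF by a fold of 61.2 against GS, 86.6 against TA and 123 against PL. Kcnc1 was lower in IF by 8.24 against GS and 5.74 against TA in the authors' deposited table, and Kcnk3 by 4.697 against EDL and 4.05 against GS. Kcnj10 and Kcnip1 were in the list against EDL, with folds of 3.31 and 2.85, in the authors' deposited table. Kcng1 was in 3 lists as higher in TA, by 141 over EDL and 39.3 over GS, with a PL value of 0. Kcna1 and Kcnh7, called here, were in none of the authors' deposited table's lists.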

How the data were processed

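RNA of laser-captured motor neurons was sequenced in 15 libraries, 3 for each of 5 motor pools. Reads were aligned with Bowtie 0.12.9 to mm9, per the submitters' processing notes; for the gene counter and gene models, the sources used here give no name. The authors deposited 1 table of read counts per gene, with RPKM values (reads scaled by the deposited gene length and by a library total) beside the counts. The genes held 44.1% to 55.0% of that total in each library. In 4 genes, 16 count cells lay below 0, and these genes were left out. The authors also deposited pairwise lists with a fold ratio, p-values and mean RPKM, made with DESeq per the submitters' processing notes. The library kit keeps no strand, per the labels' protocols, so reads of 12 members that overlap a gene on the other strand cannot be told apart from it.

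Members were the genes named Kcn with a letter from a to v that had 10 reads or more in 3 libraries or more. The members and lists were chosen with earlier results of these data known. From the deposited counts, edgeR 4.0.16 in R 4.3.3 (limma 3.58.1 loaded with it) fitted 14340 genes that passed filterByExpr, with TMM factors and a quasi-likelihood F-test, over all 15 libraries with the pool as the 1 term. The test was run for any difference, for each pool set against the other 4 on average and for the 10 pairs, with Benjamini-Hochberg adjustment over all genes tested and a threshold of 0.05. Total counts of 4417114 to 8488340 set the counting error, and 0 reads were given a floor of 3 reads over a pool, for counting error only. No 2 libraries of a pool agreed within sampling noise (chi-square over degrees of freedom of at least 11.4). Named genes were those called in any comparison, the member of highest mean RPKM in each subfamily, the 12 smallest p for any difference, and a list of genes known in motor neurons or glia; others named here were chosen after their values were seen. Alternatives were DESeq2 1.42.0, RLE factors, no filter, the members' read minimum as filter, the replicate number as a block, leaving out each library in turn, leaving out PL 2 and PL 3, and library totals without TMM factors, the last chosen after seeing the data, as was the order of libraries by RPKM in place of CPM. Promoters came from a RefSeq table on GRCm38.p6, matched by symbol. One motor neuron marker and 3 members are not reported here by name, though the members are in all counts, sums and medians.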

Additional observations from a re-analysis of the deposited data

How the results depend on the processing

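Relative to the counts of called members in the report (edgeR, Benjamini-Hochberg), RLE factors and the members' own read minimum as filter changed no count by over 1.5 times. DESeq2 called 18 in the test of any difference (8.69% of all genes), 21 in at least 1 of 10 pairs (16.4%) and 2 in TA (3.14%). It called 1 in EDL (0.495%), 15 in PL (12.8%), 1 in GS (0.417%) and the same 8 in IF (1.79%). With no filter on low counts there were 18, 18, 6, 1, 16 and 1 in the same order up to GS, and 12 in IF. The shares of all genes were then 6.97%, 5.63%, 2.41%, 1.16%, 7.26%, 0.836% and 2.51%. Without PL 2 and PL 3, with PL 1 assumed to vary like the other pools, the value of Kcng4 in PL changed from 2.77 to -0.32. With library totals and no TMM factors, chosen after seeing the data, there were 2 in PL (1.03% of all genes) and 1 in GS (0.119%). The medians of all genes moved to -0.12 in TA, 0.19 in EDL, -0.37 in PL, 0.12 in GS and 0.33 in IF. Without 1 library at a time the counts ran from 2 to 17 for any difference, 2 to 25 in pairs, 1 to 4 in TA, 0 to 1 in EDL, 4 to 20 in PL, 0 to 1 in GS and 0 to 9 in IF. The shares of all genes ran from 0.441% to 8.08% for any difference, 0.441% to 19.9% in pairs and 0.147% to 1.64% in TA. They ran from 0.0133% to 0.167% in EDL, 2.41% to 21.4% in PL, 0.0133% to 0.227% in GS and 0.207% to 2.22% in IF. The causes of these shifts were not tested. The libraries' replicate numbers did not pair them: deviations from the pool means of 30 same-numbered pairs correlated at -0.0675 to 0.128 across genes, and 1 of 30 passed 0.1. With the replicate number as a block the counts were 6 for any difference (0.662% of all genes), 7 in pairs (0.955%) and 1 in TA (0.230%). They were 0 in EDL (0.0488%), 2 in PL (0.997%), 0 in GS (0.0418%) and 6 in IF (0.669%). Depth limits genes of few reads such as Kcnrg, Kcng2 and Kcnj9, whose 0 in a library of these totals does not show absence.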
